A study of Mus musculus with 46 samples.

Results

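The comparison described here set mouse embryonic fibroblasts that carried a fusion of Nanog against fibroblasts that carried native Nanog, on day 7 (D7) of reprogramming, by bulk RNA-seq. It rests on 4 of the 46 samples of the series: 2 libraries labelled NanogN70+Oct4 and 2 labelled Nanog+Oct4. In both groups MEFs from E13.5 OG2 embryos, which hold an Oct4-GFP reporter, had been infected with pMXs retroviruses, and both carried exogenous Oct4 (gene symbol Pou5f1). The groups differed in the form of Nanog: in NanogN70+Oct4 (NanogBiD below) the N-terminal part of SS18, which interacts with BRG1, was joined to the N-terminus of Nanog through a linker, and in Nanog+Oct4 (NanogWT below) Nanog was native. Day 0 was the end of infection, after which the cells were kept in iCD3 medium, whose composition is not given in the sources used here. The medium was to be changed to N2B27 + 2iL after 7 days, and whether D7 cells were harvested before that change is not stated. D7 was the last day at which the libraries of both groups were of like depth, and MEFs (2 libraries) and mouse embryonic stem cells (mES, 1 library) served as references.

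Nanog and Oct4 are DNA-binding factors of the circuit that keeps embryonic stem cells pluripotent. SS18 is a subunit of the BAF complex, which uses ATP to move nucleosomes, and BRG1 (Smarca4) is the ATPase of that complex. On the way from fibroblast to pluripotent cell, mesenchymal and matrix genes are silenced, epithelial genes come on, the cell cycle and glycolysis speed up, and the pluripotency genes are switched on late.

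The values are FPKM, fragments scaled to gene length and to the mapped total of each library. A gene was called when limma on log2(FPKM + 1) gave a Benjamini-Hochberg adjusted p under 0.05 and the group means were at least 2-fold apart on that scale. Differences are NanogBiD minus NanogWT on log2(FPKM + 1), which understates the change of low genes. The 4 D7 libraries had relative depths of 0.978 to 1.10, read from the steps between low values, and 13416 to 13718 genes at 1 FPKM or more. Across genes the replicates correlated at r = 0.976 (NanogBiD) and 0.984 (NanogWT), above the 0.914 to 0.930 of the 4 pairs between groups. The cells were a mixture, so fewer cells of a type and less RNA per cell cannot be told apart in any value below. The spread behind each p-value was estimated over all 31 time-course libraries in 16 groups, and not from the 4 D7 libraries alone. Whether replicates came from separate cultures is not stated, and p-values then measure the spread between libraries only.

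Of 16842 genes tested, 975 (5.79%) were called higher and 783 (4.65%) lower with NanogBiD at D7. The values of the 2 groups did not overlap for any of these 1758 genes, nor for 60.6% of all genes tested, so a lack of overlap by itself says little with 2 libraries against 2. The median difference over all genes was 0.08. The called genes covered the whole range of expression, from genes listed at 0 in one group to Pou5f1 itself.

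**Figure D1:**
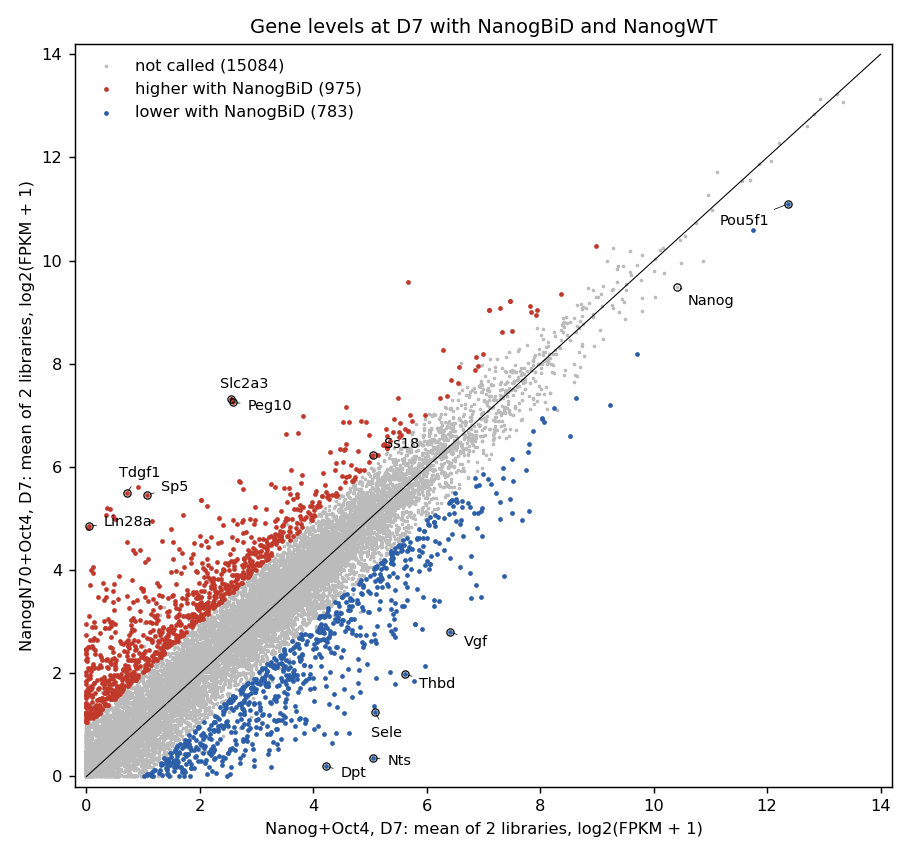
Mean log2(FPKM + 1) of the 2 NanogN70+Oct4 libraries (vertical) against that of the 2 Nanog+Oct4 libraries (horizontal) at D7, one point per tested gene, with the 975 genes called higher in red, the 783 called lower in blue and the line of equality in black. Tdgf1, Lin28a, Slc2a3 and Peg10 lie far above the line, Nts, Dpt, Sele, Thbd and Vgf far below it, and Pou5f1 and Nanog lie below it at the high end.

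The introduced factors were examined first. The gene-level values do not part vector transcripts from those of the endogenous genes. Nanog was at 712 and 723 FPKM with NanogBiD and at 1215 and 1528 with NanogWT. The groups did not overlap, and the difference of -0.92 (SE 0.20, adjusted p = 0.00196) fell just short of the fold limit. Without NanogWT replicate 1 it was -1.09 and passed. Pou5f1 was at 2683 and 1804 FPKM against 6550 and 4321. NanogBiD was lower in both libraries (difference -1.27, SE 0.36, adjusted p = 0.0118), but the call was lost without NanogBiD replicate 2 (-0.99, adjusted p = 0.128) and without NanogWT replicate 1 (-0.97, adjusted p = 0.141). Ss18, whose N-terminal part the fusion carries, was at 74.2 and 74.1 FPKM against 32.6 and 31.7, with 26.7 and 29.3 in MEF. It was higher with NanogBiD by 1.18 (SE 0.17, adjusted p = 2.66e-05). The part of the fusion transcript in this value was not tested.

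The 12 genes that stood highest with NanogBiD were U90926, Lin28a, Tdgf1, Wnt8a, Nkx1-2, Slc2a3, Cdx1, Ifitm1, Peg10, Igdcc3, Fzd10 and Sp5, with differences from 4.84 for U90926 to 4.39 for Sp5. Lin28a (chromosome 4, 134003330 to 134019196), which encodes an RNA-binding protein that blocks let-7 maturation, was at 27.6 and 28.2 FPKM with NanogBiD and at 0 and 0.0704 with NanogWT (adjusted p = 5.85e-10). It was listed at 0 in both MEF libraries and at 13.6 in mES. Tdgf1 (chromosome 9, 110939608 to 110946158), the Nodal co-receptor Cripto, was at 49.1 and 39.4 FPKM against 0.454 and 0.840, a 68.4-fold higher mean (difference 4.78, SE 0.34, adjusted p = 3.81e-09), and reached 408 in mES. Slc2a3 (chromosome 6, 122727809 to 122802363), the glucose transporter GLUT3, was at 162 and 154 FPKM against 5.37 and 4.33, with 1071 in mES. U90926 (chromosome 5, 92209895 to 92215408, annotated as a lncRNA) was at 37.4 and 34.1 FPKM against 0.484 and 0.112. It was listed at 0 in mES and at 0 and 0.245 in MEF. Peg10 (chromosome 6, 4747306 to 4760517), an imprinted gene of retrotransposon origin, was at 142 and 161 FPKM against 4.30 and 5.75. Both MEF libraries (17.5 and 16.5) and mES (20.4) lay between the groups.

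Among the others of the 12, 3 belong to Wnt signalling. Wnt8a, a ligand, was at 29.3 and 24.9 FPKM with NanogBiD and at 0.0416 and 0 with NanogWT. Fzd10, a Wnt receptor, was at 30.4 and 31.3 against 0.634 and 0.235. Sp5, a transcription factor that Wnt signalling induces, was at 57.5 and 32.1 against 1.38 and 0.836. Cdx1 and Nkx1-2, homeobox genes of the posterior embryo, were at 35.3 and 29.6 against 0.216 and 0.334, and at 38.9 and 32.5 against 0.464 and 0.215. Igdcc3, a cell-surface protein of the immunoglobulin superfamily, was at 30.95 and 33.5 against 0.270 and 0.514. Ifitm1, an interferon-inducible membrane protein also known from the primitive streak, was at 34.4 and 66.6 against 0.367 and 1.56.

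The 12 genes that stood lowest were Nts, Dpt, Pde1a, Sele, Ifi204, Col28a1, Zbp1, Thsd7b, Mpeg1, Thbd, Vgf and Kcnip1, with differences from -4.69 for Nts to -3.55 for Kcnip1. Nts (chromosome 10, 102481756 to 102490418), the precursor of neurotensin, was at 0.180 and 0.395 FPKM with NanogBiD and at 24.0 and 42.8 with NanogWT (SE 0.31, adjusted p = 1.6e-09). Dpt (chromosome 1, 164796663 to 164824274), the matrix protein dermatopontin, was at 0.137 and 0.150 FPKM against 15.1 and 20.6, and at 2.57 and 0.391 in MEF. Sele (chromosome 1, 164039614 to 164058487), the adhesion receptor E-selectin, was at 2.14 and 0.817 FPKM against 35.4 and 30.5. Thbd (chromosome 2, 148404471 to 148408188), thrombomodulin, was at 3.11 and 2.83 FPKM against 42.8 and 53.5. It alone among the 12 was as high in MEF (54.1 and 23.5) as with NanogWT. The 11 others stayed at or under 4.10 FPKM in both MEF libraries and at or under 0.149 in mES, so that NanogWT cells held them above both references. Zbp1, a sensor of Z-form nucleic acids, was at 2.59 and 0.825 against 32.9 and 32.0, and Mpeg1, a perforin-like protein, at 3.87 and 1.49 against 49.8 and 35.7. Ifi204 belongs to a family of near-identical neighbours, and its own value (3.60 and 3.24 against 51.5 and 73.8) is uncertain for that reason.

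**Figure D2:**
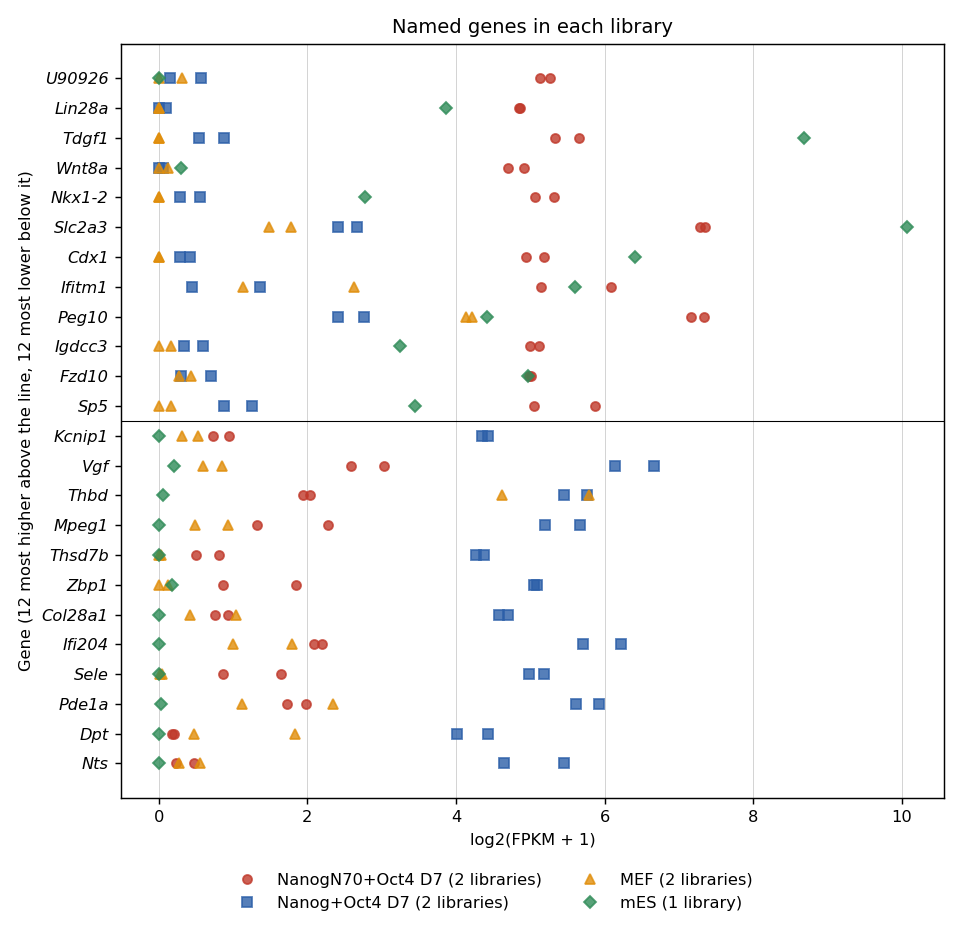
log2(FPKM + 1) of the 12 most higher genes (above the line) and the 12 most lower genes (below it), with one symbol per library for NanogN70+Oct4 at D7, Nanog+Oct4 at D7, MEF and mES. Red and blue symbols are apart for all 24 genes, and among the lower genes the blue squares lie to the right of mES in every row and of MEF in every row but Thbd.

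To show what lies before the start of these genes, the 250 bases upstream of a RefSeq transcript start are given for the pair of highest and the pair of lowest genes, from the sense strand of each gene (GRCm38.p6, the assembly of mm10). They were searched on both strands for the octamer ATGCAAAT bound by POU factors, the AP-1 site TGANTCA, the TEAD site GGAATG and the SOX site CATTGT, and matches are in capitals. The windows are chr5:92215409-92215658 (minus strand) for U90926, chr4:134018817-134019066 (minus strand) for Lin28a, chr10:102490419-102490668 (minus strand) for Nts and chr1:164796413-164796662 (plus strand) for Dpt. The Lin28a window precedes a transcript start that lies inside the gene range given above, so it is not the sequence before the outermost start of that gene.
U90926: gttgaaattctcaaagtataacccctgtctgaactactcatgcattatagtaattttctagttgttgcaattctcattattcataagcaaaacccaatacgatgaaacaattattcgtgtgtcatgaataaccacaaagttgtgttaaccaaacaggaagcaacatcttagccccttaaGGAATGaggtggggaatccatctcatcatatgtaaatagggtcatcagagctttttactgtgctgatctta
Lin28a: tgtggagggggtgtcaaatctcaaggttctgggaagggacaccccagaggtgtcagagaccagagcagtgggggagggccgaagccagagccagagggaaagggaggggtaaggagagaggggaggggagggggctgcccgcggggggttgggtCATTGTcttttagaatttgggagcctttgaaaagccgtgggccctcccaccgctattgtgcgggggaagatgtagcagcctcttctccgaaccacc
Nts: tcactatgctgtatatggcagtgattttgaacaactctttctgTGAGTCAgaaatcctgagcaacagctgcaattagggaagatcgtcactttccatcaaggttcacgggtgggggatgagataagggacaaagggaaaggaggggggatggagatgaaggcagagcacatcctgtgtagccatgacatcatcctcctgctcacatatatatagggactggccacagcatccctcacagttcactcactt
Dpt: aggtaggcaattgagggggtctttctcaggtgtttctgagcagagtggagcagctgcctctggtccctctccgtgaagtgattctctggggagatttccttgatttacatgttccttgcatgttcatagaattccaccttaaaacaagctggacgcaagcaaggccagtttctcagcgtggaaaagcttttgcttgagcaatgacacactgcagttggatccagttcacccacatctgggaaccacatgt
One TEAD match began 71 bases before the start of U90926, one SOX match 96 bases before that of Lin28a and one AP-1 match 207 bases before that of Nts, and none of the 4 motifs was found in the Dpt window. In windows from 250 bases before to 50 after the start, 1.97% of 27025 genes held the octamer, 8.97% the AP-1 site, 16.6% the TEAD site and 14.3% the SOX site. A comparison of these shares between called genes is void, because a window was at hand for only 69.1% of the higher and 71.4% of the lower genes. A match is a run of letters and not a bound site.

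Gene lists were then read against the background of 5.79% called higher and 4.65% called lower. The lists were chosen with earlier results of these data known, so their counts describe these libraries and are no independent evidence.

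Pluripotency genes were higher with NanogBiD. Of 20 transcription factors of the pluripotency circuit, 14 were called higher and none lower (median difference 1.55, against 0.08 over all genes). Gbx2 was at 26.6 and 18.9 FPKM against 1.01 and 0.330 (difference 3.84, SE 0.46, adjusted p = 4.09e-06). Sox2, the partner of Oct4 on DNA, was at 15.3 and 12.5 against 0.486 and 0.498 (3.31, SE 0.45, adjusted p = 1.64e-05). Sall4, a zinc-finger factor, was at 22.4 and 22.9 against 1.43 and 1.63 (3.22, SE 0.31, adjusted p = 2.49e-07), and Mycn at 11.1 and 13.8 against 0.195 and 0.653. Esrrb, an orphan nuclear receptor, was at 6.09 and 4.50 against 0.111 and 0.159, and Nr5a2, also a nuclear receptor, at 3.41 and 3.30 against 0.298 and 0.276. Sox2 and Esrrb were thus far above NanogWT and far below mES, where they stood at 248 and 163. Gbx2 stood above its mES level of 11.9 in both NanogBiD libraries. The 6 that were not called were Klf4 (difference 0.97), Klf5 (-0.31), Tbx3 (0.53), Prdm14 (0.52), Sox15 (0.91) and Foxd3 (0.29). Klf4 (adjusted p = 0.0462) and Sox15 (adjusted p = 0.00809) failed only the fold limit. Prdm14, Sox15 and Foxd3 were under 1 FPKM in every D7 library, where a difference of 1 cannot be reached on this scale.

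Among 23 tested pluripotency effectors and signalling genes, 15 were called higher and none lower (median 1.62). Besides Lin28a, Tdgf1 and Slc2a3 these included Tdh, the threonine dehydrogenase of mouse pluripotent cells, at 15.0 and 16.6 FPKM against 0 and 0.186. Dppa5a and Dppa3 were at 4.11 and 7.87 and at 3.84 and 5.34, and both NanogWT libraries listed both genes at 0. Dppa5a was still far below its 2396 FPKM in mES, whereas Lin28a was already above mES. Utf1 was at 6.62 and 6.04 against 0.218 and 0.302. Dppa4, Fgf4, Nodal, Tcl1 and Tex19.1 were not called, and none of the 4 libraries held more than 1.28 FPKM of any of them. Of these, Fgf4 failed only the fold limit (difference 0.98, adjusted p = 0.0172). Fbxo15 was at 3.62 and 5.45 against 5.06 and 5.91, with overlapping groups.

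The 8 pluripotent stem cell markers that were to check the cells' identity (Sox2, Esrrb, Zfp42, Tdgf1, Dppa5a, Utf1, Epcam and Cdh1) summed to 94.4 and 107 FPKM with NanogBiD, 2.77 and 2.78 with NanogWT, 0.490 and 1.42 in MEF and 3688 in mES. The 8 fibroblast markers summed to 259 and 406 with NanogBiD, 571 and 622 with NanogWT, 5636 and 6619 in MEF and 11.6 in mES. By this sum neither group was at the level of either reference. By the pluripotent sum NanogWT was close to MEF and far below mES. NanogBiD replicate 1 had the higher sum of the pair for both lists. Markers of other cell types were low in both groups, apart from the neuron list. Summed macrophage and blood markers were 4.39 to 9.41 FPKM, endothelial 3.35 to 6.03, adipocyte 1.08 to 2.68 and skeletal muscle 0.0579 to 0.208 over the 4 libraries, with Tie1, Krt14, Krt1, Myod1, Myog, Adipoq, Plin1 and Cidec at 0 in all 4. The neuron list summed to 122 and 137 with NanogBiD and 16.1 and 18.9 with NanogWT, which was nearly all Stmn2 (119 and 132 against 11.9 and 14.4), a microtubule regulator that mES also held at 55.3. The keratinocyte list stood at 0.829 to 1.19 with NanogBiD and 6.58 to 6.63 with NanogWT, which was nearly all Trp63 (0.496 and 0.589 against 6.58 and 6.63). The part of other cell types in the results was not tested.

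Epithelial genes followed the same direction. Of 21 tested junction and epithelial genes, 12 were called higher and none lower (median 1.16). Cdh1, the E-cadherin of adherens junctions, was at 6.78 and 6.06 FPKM against 0.0712 and 0.0659 (difference 2.79, SE 0.31, adjusted p = 1.64e-06), with 185 in mES. Epcam was at 17.1 and 16.4 against 1.35 and 0.766, Cldn4, a tight-junction claudin, at 12.7 and 12.4 against 1.81 and 1.00, and Dsp, the desmosomal plaque protein, at 21.3 and 14.3 against 3.66 and 3.08. Esrp1, a splicing regulator of epithelial cells, was at 1.31 and 2.17 against 0.0477 and 0.0884. Jup (29.0 and 20.3 against 21.3 and 14.7), Krt18 (5.65 and 3.91 against 2.89 and 3.59) and Krt19 (1.94 and 0.738 against 0.758 and 0.372) were not called.

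Mesenchymal factors and markers were mixed. Of 17, 4 were called lower, 1 higher and 12 neither (median -0.27). Osr1, a zinc-finger factor of limb and trunk mesenchyme, was at 4.99 and 5.47 FPKM against 33.1 and 33.2 (difference -2.46, SE 0.16, adjusted p = 1.18e-09). Vim, the intermediate filament vimentin, was at 1600 and 1501 against 3584 and 3319 (-1.15, adjusted p = 0.000179). Thy1 and Twist1 were also called lower, at -1.47 and -1.01. The Twist1 call was lost without NanogBiD replicate 2 (-0.82, adjusted p = 0.159) or NanogWT replicate 1 (-0.79, adjusted p = 0.175), and that of Thy1 without NanogBiD replicate 2 (-1.03, adjusted p = 0.052). Snai1, a repressor of Cdh1, was called higher with NanogBiD (11.1 and 6.87 against 2.73 and 4.33, difference 1.13, adjusted p = 0.00729), a call that was lost without NanogBiD replicate 1 (0.82, adjusted p = 0.103) or NanogWT replicate 1 (0.87, adjusted p = 0.105). Prrx1 (7.91 and 9.03 against 8.25 and 9.54), Snai2, Zeb2, Cdh2 and Twist2 had differences of -0.34 to 0.02. Prrx1 was below its MEF level of 51.5 and 52.2 in all 4 libraries.

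Matrix genes were lower in part. Of 22 collagens and matrix proteins, 8 were called lower and 1 higher (median -0.91). Thbs1, thrombospondin, was at 29.4 and 37.8 FPKM against 171 and 191 (difference -2.40, SE 0.29, adjusted p = 3.91e-06), and Col8a1 at 89.7 and 103 against 360 and 374 (-1.92, SE 0.18, adjusted p = 1.35e-07). Thbs1 was far above both in MEF (1133 and 1485), whereas Col8a1 stood at 85.7 and 77.3 in MEF, near its NanogBiD level. Lum, a small proteoglycan, was at 31.2 and 28.4 against 80.1 and 102. Lox, the enzyme that crosslinks collagen, was the one member called higher (70.3 and 65.0 against 30.8 and 30.7). Col1a1 (147 and 74.6 against 196 and 185) and Col3a1 (104 and 70.2 against 120 and 103) were not called, the first under the fold limit (-0.86, adjusted p = 0.0163) and the second with overlapping groups.

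Of 16 matrix proteases and inhibitors, 8 were called lower and none higher (median -0.96). Adamts1 was at 31.9 and 29.9 FPKM against 172 and 140 (difference -2.30, SE 0.21, adjusted p = 1.31e-07), Mmp2 at 13.3 and 11.6 against 47.0 and 48.8 (-1.86, SE 0.14, adjusted p = 8.42e-09) and Serpine2 at 41.4 and 47.1 against 123 and 178. These 3 were in MEF at 55.2 and 32.6, 90.3 and 40.7, and 86.0 and 38.1. Of 14 TGF-beta ligands, receptors and targets, 3 were called lower: Tgfb2, Tgfbr2 and the target Ctgf, which was at 5.97 and 7.53 against 51.0 and 58.7 (-2.85, SE 0.31, adjusted p = 1.34e-06). Of 14 smooth muscle genes, 3 were called lower, among them the intermediate filament Des (14.7 and 6.14 against 90.2 and 59.3). Acta2 (18.1 and 16.8 against 16.8 and 18.4) overlapped, in all 4 libraries far below the 770 and 1153 of MEF.

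The interferon-stimulated genes had the highest share of calls in 1 direction among the 23 gene lists, the marker lists left aside. Of 20, 18 were called lower with NanogBiD and none higher (median -1.62). Ifit1, which binds foreign RNA, was at 9.37 and 8.51 FPKM against 55.2 and 87.1 (difference -2.82, SE 0.41, adjusted p = 3.3e-05). Mx1, a GTPase that blocks viruses, was at 0.125 and 0.182 against 6.65 and 6.83, Oas2, an oligoadenylate synthetase, at 0.677 and 0.436 against 8.68 and 9.82, and Irf7, the factor that drives interferon genes, at 15.4 and 8.40 against 61.1 and 51.4. Isg15 was at 20.5 and 10.1 against 111 and 103 and lost its call without NanogBiD replicate 2 (-2.33, adjusted p = 0.0633). Bst2 (-1.20, adjusted p = 0.126) was among the 2 that were not called. Ifit1 was at 0.498 and 0.0970 in MEF and at 0 in mES, so both groups held more of it than either reference.

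Of 13 tested inflammatory chemokine and adhesion genes, 6 were called lower and none higher (median -0.88). Besides Sele these were Ptx3 (6.97 and 6.43 against 44.3 and 35.3), Ccl7 (2.24 and 3.38 against 17.7 and 17.0), Ptgs2, the inducible cyclooxygenase (1.31 and 1.83 against 10.1 and 10.4), Cxcl12 and Ccl2. The Ccl2 call was lost without NanogWT replicate 2 (-1.21, adjusted p = 0.0753). Ccl7, Ptgs2 and Cxcl12 were at 13.8 and 24.5, 21.4 and 63.4, and 128 and 53.4 in MEF, above NanogBiD in every case.

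Cell cycle genes were higher with NanogBiD. Of 21, 13 were called higher and none lower (median 1.35). All 6 of Mcm2 to Mcm7, the subunits of the replicative helicase, were called, from 1.11 for Mcm4 to 1.90 for Mcm7. Mcm7 was at 44.99 and 42.7 FPKM against 11.3 and 10.8 (SE 0.26, adjusted p = 1.81e-05), with 26.7 and 25.8 in MEF and 137 in mES, so the 2 groups lay on either side of MEF. Top2a was at 59.9 and 61.2 against 17.2 and 22.7, and Ccnb1, a mitotic cyclin, at 47.4 and 70.3 against 13.4 and 21.6. The D-type cyclins did not follow: Ccnd1 was at 48.9 and 46.8 against 77.2 and 77.3 (-0.68, adjusted p = 0.0385, under the fold limit), and Ccnd2 and Ccnd3 had differences of 0.41 and -0.40. Mki67, a common proliferation marker, was at 29.1 and 21.2 against 15.6 and 19.2 and was not called. None of 12 genes of the p53, Ink4 and Cip barrier was called by limma. However, 6 of them had an adjusted p under 0.05 with less than a 2-fold difference, and the same 6 an unadjusted p under 0.05. Of all 16842 genes tested, 4779 had an adjusted and 6424 an unadjusted p under 0.05, at any size of difference. Cdkn1a, the p53 target p21, was at 148 and 139 against 198 and 177 (-0.38, adjusted p = 0.0403), and Cdkn2a, which encodes the Ink4a and Arf proteins, at 47.0 and 66.8 against 29.4 and 32.5 (0.84, adjusted p = 0.0199).

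Of 17 genes of glycolysis and pyruvate handling, 9 were called higher and none lower (median 1.05). Slc2a1, the glucose transporter GLUT1, was at 131 and 153 FPKM against 25.7 and 20.2 (difference 2.58, SE 0.20, adjusted p = 1.21e-08). Pfkl, the liver form of phosphofructokinase, was at 33.5 and 27.7 against 7.53 and 4.43, Eno1, enolase, at 522 and 564 against 159 and 154, and Ldha, the lactate dehydrogenase of glycolytic cells, at 509 and 545 against 274 and 220. The hexokinases Hk1 (22.3 and 10.0 against 28.9 and 20.7) and Hk2 (21.3 and 14.4 against 23.2 and 17.7) were not higher. Eno1 and Ldha had MEF values of 401 and 680 and of 305 and 556, so that by these genes it was NanogWT that lay below the MEF range.

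**Figure D3:**
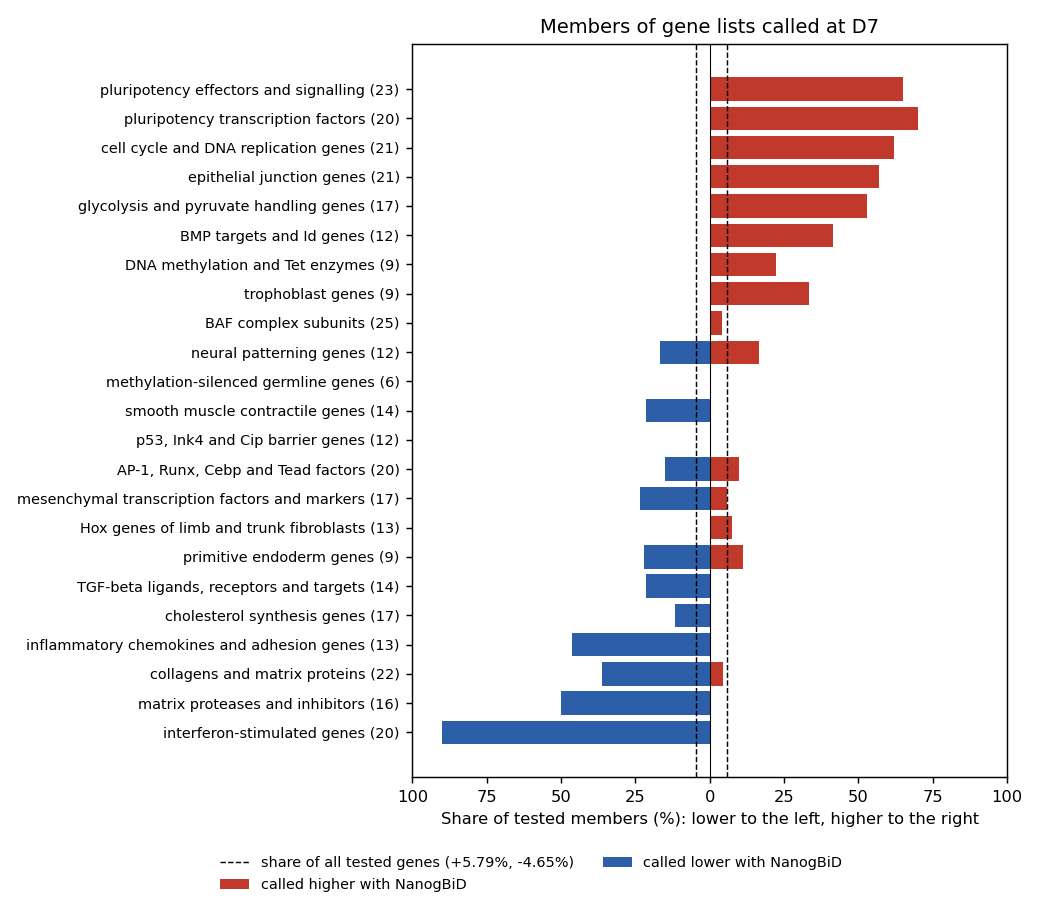
Share of the tested members of each of 23 gene lists (number tested in parentheses) called higher (red, to the right) or lower (blue, to the left) with NanogBiD at D7, with dashed lines at the shares of all tested genes. Lists are ordered by median difference, from the pluripotency effectors at the top (1.62) to the interferon-stimulated genes at the bottom (-1.62).

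Of 12 BMP targets and Id genes, 5 were called higher and none lower (median 0.91). All 4 Id genes, which encode inhibitors of helix-loop-helix factors, were among them, led by Id3 at 83.3 and 119 FPKM against 12.9 and 11.6 (difference 2.92, SE 0.39, adjusted p = 1.52e-05). Id3 was higher still in MEF (269 and 146) and low in mES (7.88). Of 9 DNA methylation and Tet enzymes, Dnmt3b, a de novo methyltransferase (6.33 and 6.88 against 0.356 and 0.339), and Uhrf1, which recruits Dnmt1 (44.8 and 42.7 against 16.3 and 14.6), were called higher. Tet1 was at 2.79 and 3.55 against 1.05 and 1.20 (0.97, adjusted p = 0.00421, under the fold limit), and Tet2 at 3.57 and 3.26 against 3.93 and 3.90.

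Of 25 subunit genes of the BAF complex, 1 was called higher and none lower (median 0.36), a share near that of all genes. It was Bcl7a, at 6.67 and 8.36 FPKM against 3.46 and 2.67, which lost its call without NanogBiD replicate 2 (0.92, adjusted p = 0.0659) or NanogWT replicate 2 (0.92, adjusted p = 0.0615). An adjusted p under 0.05 was reached by 9 of the 25, of which 8 were higher and 1 lower with NanogBiD. All of these but Bcl7a were under the fold limit. Of all 16842 genes tested, 2909 were higher and 1870 lower at that limit on p alone. Among them were Dpf2 (25.9 and 26.9 against 15.0 and 15.4, difference 0.76) and the core subunit Smarcc1 (54.3 and 47.6 against 32.1 and 31.6, difference 0.66). Smarca4, the gene of BRG1, was at 47.6 and 30.6 against 33.6 and 25.4 (0.37, SE 0.18, adjusted p = 0.138), with overlapping groups. Ss18l1, the paralogue of Ss18, was at 1.88 and 2.31 against 2.30 and 2.17. Ss18 itself was not in this list.

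Among 20 AP-1, Runx, Cebp and Tead factors, 2 were called higher (Atf3 and Bach2) and 3 lower (Cebpd, Fosl2 and Tead3), with a median of -0.26. Bach2 (0.95), Fosl2 (-0.97) and Tead3 (-0.73) were each under the fold limit without NanogWT replicate 1, as were Fosl2 (-0.95) and Tead3 (-0.86) without NanogBiD replicate 2. Fos was at 8.73 and 9.02 FPKM against 8.87 and 8.24. Cebpd, a factor of the inflammatory response, was at 6.53 and 6.45 against 27.9 and 19.2. Of 17 cholesterol synthesis genes, 2 were called lower, among them Lss, lanosterol synthase (-1.11). All 17 had a negative difference (median -0.62, against 0.08 over all genes). The lineage lists were small. Primitive endoderm genes had 1 called higher (Lama1) and 2 lower (Dab2 and Cubn) of 9, trophoblast genes 3 higher (Peg10, Cdx2 and Tfap2c) of 9, neural patterning genes 2 higher and 2 lower of 12, Hox genes of limb and trunk 1 higher (Hoxb9) of 13 and germline genes none of 6. The Hoxb9 call was lost without NanogWT replicate 1 (1.68, adjusted p = 0.0548), and Cubn was under the fold limit without that library (-0.90) or NanogBiD replicate 1 (-0.97). In the neural list Tubb3, a tubulin, was called higher at 131 and 103 FPKM against 20.8 and 23.4 (difference 2.35). Foxb1 was also called higher, at 2.59 and 1.92 against 0.127 and 0. Of the genes called lower, Pou3f1, a POU factor, was at 3.95 and 1.82 against 37.9 and 29.2 (difference -3.20, SE 0.43, adjusted p = 1.37e-05). The other was Sox1, an early neural marker, at 17.8 and 13.0 against 41.4 and 30.6. Both MEF libraries held Pou3f1 at 0, and the Sox1 call was lost without NanogBiD replicate 2 (-0.96, adjusted p = 0.14) or NanogWT replicate 1 (-0.96, adjusted p = 0.143).

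Set against the 2 references, the called genes fell into parts. Of all tested genes, 1106 (6.57%) stood 4-fold or more above MEF in mES on the log2(FPKM + 1) scale and 1064 (6.32%) 4-fold or more below. The genes called higher with NanogBiD held 276 (28.3%) of the first kind and 37 (3.79%) of the second, and those called lower held 25 (3.19%) and 170 (21.7%). Over the 276 genes, NanogBiD stood at a median of 47.3% of the way from MEF to mES (quartiles 30.97 and 70.6) and NanogWT at 0.169% (quartiles -17.3 and 13.2). These genes were chosen by the same difference, and over all 1106 the medians were 26.3% and 4.64%. Over all 1064 genes that are lower in mES, the medians were 33.6% for NanogBiD and 22.5% for NanogWT.

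Most called genes were of neither kind. Counted over all called genes, of whichever kind, the directions differed in how often a group lay outside both references. Of the 783 genes called lower, NanogWT was at least 2-fold above both MEF and mES in 550 (70.2%), against 10.2% of all genes tested, and NanogBiD was at least 2-fold above both in 193 (24.6%). Of the 975 genes called higher, NanogBiD was at least 2-fold above both references in 231 (23.7%), against 8.06% of all genes tested. Among the lower genes 289 (36.9%) were under 1 FPKM in all 3 reference libraries, against 15.6% of the higher genes and 14.9% of all tested. Sele, Zbp1, Thsd7b and Trp63 are examples from the genes named above. All these shares are partly set by the choice of genes, since called genes were picked for being higher in one group than in the other. The filter on low values used the time-course libraries alone, so genes low in the references passed only through those libraries. The excess over all tested genes is therefore a description and no independent result.

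The difference at D7 was compared with that at D5, which rests on 4 other libraries. At D5, 539 genes (3.20%) were called higher and 552 (3.28%) lower with NanogBiD. Of the 975 genes higher at D7, 296 (30.4%) had been called higher at D5, which is 54.9% of the D5 genes. Of the 783 lower at D7, 456 (58.2%) had been called lower at D5, which is 82.6% of the D5 genes. No gene was called in opposite directions. The 679 genes higher at D7 and not called at D5 had a median difference of 0.43 at D5 and 1.26 at D7, and the 327 lower genes had -0.66 and -1.22. The 243 genes called higher at D5 and not at D7 went the other way, from a median of 1.22 to 0.65, and the 96 called lower at D5 alone from -1.16 to -0.77. Both moves are partly set by choosing genes on the day at which they passed.

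A test of the change itself called 212 genes, of which 170 (1.01%) shifted upwards from D5 to D7 and 42 (0.249%) downwards. Of these, 143 and 18 were also called at D7 in the same direction. The count rests on single libraries: it was 80 without NanogBiD replicate 2 and 56 without NanogWT replicate 1 of D7, and 114 when the compared groups were fitted alone. The change was also related to base composition across genes, with a Spearman rho of -0.37 with GC content, against 0.37 for the D5 difference and -0.03 for the D7 difference. These correlations run over 15428 genes that share the same libraries, and the part of base composition in the change was not tested further. When trends over GC content and transcript length were taken out of every library, a choice made after seeing the data, the count was 265 among the 15428 genes with values for both, and shared 156 genes with the 192 of the 212 that had them.

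Of the genes called both at D7 and in the change, Peg10 had the largest upward shift, from 11.8 and 12.5 FPKM with NanogBiD at D5 to 142 and 161 at D7, while NanogWT went from 5.87 and 4.03 to 4.30 and 5.75 (change of the difference 3.51). Lin28a went from 2.78 and 2.86 to 27.6 and 28.2, and Wnt8a from 2.40 and 3.08 to 29.3 and 24.9, and NanogWT stayed at or under 0.0704 for both. Tdh went from 0.658 and 0.591 to 15.0 and 16.6, and Dppa3, listed at 0 in both NanogBiD libraries at D5, reached 3.84 and 5.34. Igfbp2, an insulin-like growth factor binding protein, went from 2.75 and 3.46 to 31.1 and 23.3, having been at 15.5 and 12.8 on D0. Cdh1 was at 0.182 and 0.409 at D5, and Slc2a1 at 30.7 and 37.1, and both changes were called (2.49 and 2.15). In the other direction, Foxf2, a forkhead factor of mesenchyme, went with NanogBiD from 2.17 and 2.08 to 0.332 and 0.520, and Fzd8, a Wnt receptor, from 18.7 and 20.2 to 6.33 and 6.16, while NanogWT held 5.15 and 5.07 and 49.4 and 36.4 at D7. Among the cholesterol genes 3 had called downward changes, including Lss and Dhcr7.

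**Figure D4:**
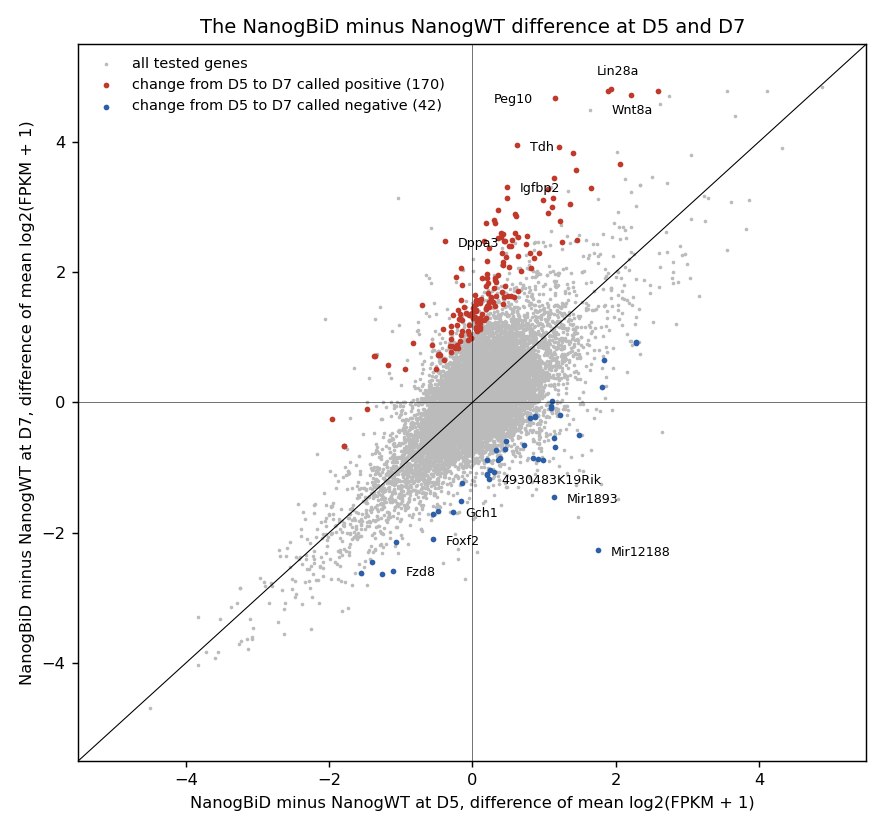
Difference NanogBiD minus NanogWT at D7 (vertical) against that at D5 (horizontal), both of mean log2(FPKM + 1), one point per tested gene, with the 170 genes of called upward change in red, the 42 of called downward change in blue and the line of equal difference in black. Peg10, Tdh, Lin28a, Wnt8a, Igfbp2 and Dppa3 lie furthest above the line among the genes called in both tests, and Mir12188 lies furthest below it.

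Genes of the primitive streak and of Wnt signalling were gathered after their values had been seen, since 5 of the 12 highest genes were of this kind. Their counts are therefore a description. The primitive streak is the part of the early embryo where mesoderm forms under Wnt and Nodal signals. Of 27 genes of the streak and the posterior axis, 22 passed the filter on low values and 17 were called higher, none lower. T (brachyury), the defining factor of the streak, was at 3.71 and 4.20 FPKM with NanogBiD and at 0.0169 and 0 with NanogWT (difference 2.29, SE 0.12, adjusted p = 7.8e-11). Cdx2 was at 7.29 and 6.28 against 0 and 0, and Cdx4 at 4.92 and 5.67 against 0.0396 and 0.0367. Meox1, a factor of somite mesoderm, was at 12.7 and 17.5 against 0.114 and 0, and Hoxb1 at 14.5 and 14.1 against 0 and 0.160. Tbx6 and Msgn1, which specify presomitic mesoderm, were at 2.26 and 2.33 against 0.0368 and 0, and at 1.78 and 2.39 against 0 and 0. Evx1 was at 3.83 and 2.17 and Fgf8 at 1.10 and 1.12, and both NanogWT libraries listed both at 0. In mES, T, Cdx4, Tbx6, Msgn1, Evx1 and Hoxb1 were at or under 0.755 FPKM, below both NanogBiD libraries. This did not hold for the whole list, as 11 of the 22 tested genes stood higher in mES than in both MEF libraries. Among the highest genes named above, Cdx1 was at 83.8 FPKM and Fzd10 at 30.3 in mES. Wnt8a, Nkx1-2 and Sp5 were at 0.227, 5.83 and 9.88 there.

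Other streak genes were not called or not tested. Eomes (0.619 and 0.281 against 0.187 and 0.315), Gsc (0.287 and 0.210 against 1.02 and 0.249) and Lhx1 (0.326 and 0.157 against 0 and 0.319), which mark the anterior streak, overlapped between groups. Mixl1, Mesp1, Foxa2, Wnt3a and Fgf17 were too low to be tested. Of 14 Wnt targets and pathway genes 13 were tested and 8 called higher, none lower. In mES, 10 of the 13 stood above both MEF libraries. Lef1 and Tcf7, nuclear partners of beta-catenin, were at 10.3 and 12.6 against 0.853 and 1.16 and at 21.1 and 24.2 against 3.09 and 3.55. Axin2, a feedback inhibitor that beta-catenin induces, was at 19.05 and 14.8 against 7.27 and 7.62, and Notum, a secreted inhibitor, at 7.01 and 4.91 against 0.161 and 0.193. Lgr5, Rnf43, Znrf3, Dkk1 and Wnt5b had differences of 0.27 to 0.97 and were not called.

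The libraries of D0 to D7 show when these levels were reached. Tdgf1 was at 7.42 and 4.22 FPKM with NanogBiD on D3 and at 23.0 and 21.3 on D5. U90926 had its highest mean with NanogBiD on D3 (95.4 and 70.6) and was at 37.4 and 34.1 at D7. Sox2, Cdh1, Cdx2 and Meox1 were at or under 1.81 FPKM in both NanogBiD libraries of D5 and above 6 in both of D7. Ifit1 was at 13.2 and 40.8 on D3 with NanogBiD and at 59.8 and 52.97 with NanogWT, and on D5 the values were 12.2 and 9.07 against 81.9 and 76.9. Nts went with NanogWT from 1.03 and 0.609 on D0 to 21.9 and 44.9 on D5, and Thbd went with NanogBiD from 17.7 and 24.4 on D0 to 3.11 and 2.83 at D7. Differences between days within a group were not tested.

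**Figure D5:**
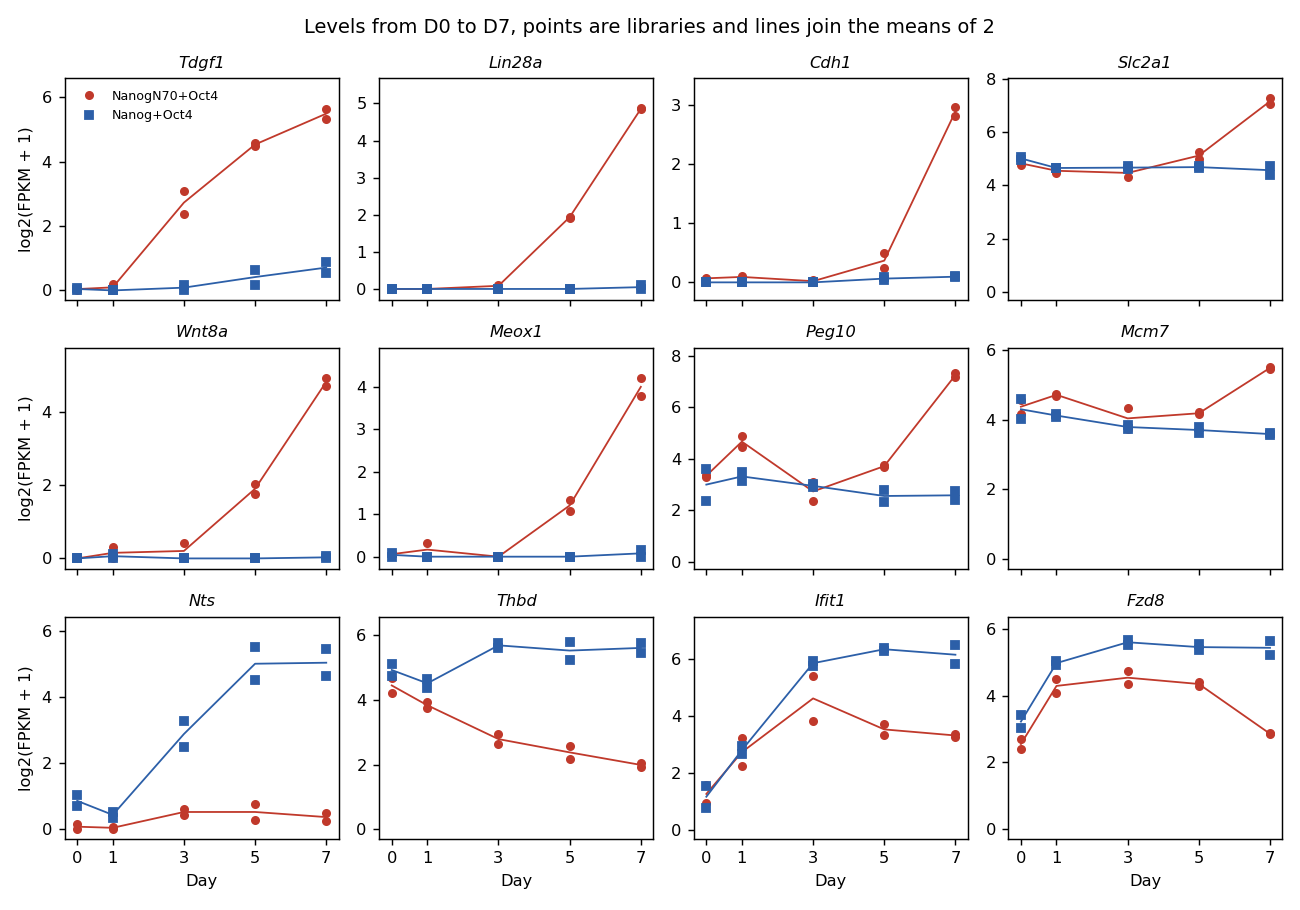
log2(FPKM + 1) from D0 to D7 of 12 genes in the NanogN70+Oct4 (red circles) and Nanog+Oct4 (blue squares) libraries, 2 per day, with lines through the means. Lin28a, Cdh1, Wnt8a, Meox1, Peg10, Slc2a1 and Mcm7 are higher at D7 than at D5 with NanogBiD, whereas Nts, Thbd and Ifit1 had parted by D5.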

How the data were processed

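Total RNA of the cells was sequenced as bulk RNA-seq. The authors trimmed reads with Trim Galore 0.6.4, aligned them to mm10 with HISAT2 2.2.1 and quantified genes as FPKM with StringTie 2.2.1, and the FPKM table was used as deposited. Their annotation release and the use of strand are not given in the sources used here, so overlapping and antisense genes cannot be told apart. Counts were not used here, and depth is known only as relative depth, the most frequent ratio between libraries of a gene's low values.

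A gene was kept when 2 or more of the 31 time-course samples held 1 FPKM or more of it (16842 of 37108). Values were fitted as log2(FPKM + 1) with limma 3.58.1 in R 4.3.3 over all 16 groups, which shared one estimate of the spread, with trended empirical Bayes moderation and Benjamini-Hochberg adjustment over all tested genes. The 2-fold limit was a log2 limit of 1. The change from D5 to D7 was an interaction contrast of the same fit. Summaries and plots used Python 3.11.15, numpy 2.4.6, pandas 2.3.3 and matplotlib 3.10.9. The procedure was tested on simulated data of 16842 genes for the D7 comparison, with independent normal noise. A log2 change of 2 was given to 200 genes with a NanogWT D7 mean of at least 2 on log2(FPKM + 1). Of these, 192 (96%) were recovered, with 3 false calls among the other genes. Changes in lower genes, smaller changes and deviations shared between libraries were not simulated, so these rates do not cover them.

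The samples compared, the 23 gene lists (385 genes) and the marker lists were chosen with earlier results of these data known. Named were the introduced factors, the 12 highest and 12 lowest called genes without predicted, clone or small RNA genes, up to 6 called members per list with defining members that did not pass, and the 6 largest changes from D5 in each direction. The streak and Wnt lists, and other genes given beside these, were chosen after their values were seen. Gene coordinates and upstream windows come from RefSeq for GRCm38.p6, in which 94.1% of tested genes were found. GC content and length were taken from the longest transcript of GENCODE release 21. Alternatives were another pseudocount, no filter, no fold limit, rescaling to TPM, quantile normalization, fits to fewer samples, a replicate block and the omission of each D7 library. The GFOLD comparisons that the study made and the transcript table of iPSC lines were not used here. Results for a few genes are not reported here.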

Additional observations from a re-analysis of the deposited data

Results flagged for a closer look

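For 12 genes the difference between NanogBiD and NanogWT was itself called different at D7 and D5, by the limma interaction test with Benjamini-Hochberg adjustment. The change of the log2 difference was 3.51 for Peg10, 3.32 for Tdh, 2.88 for Wnt8a, 2.87 for Lin28a, 2.85 for Dppa3 and 2.83 for Igfbp2. It was -4.03 for Mir12188, -2.60 for Mir1893, -1.55 for Foxf2, -1.47 for Fzd8, -1.40 for 4930483K19Rik and -1.40 for Gch1. These genes are the 6 with the largest changes in each direction among those called both at D7 and in the change. By that test the adjusted p was 0.000814 for Wnt8a and 0.000871 for Lin28a. It was only 0.0447 for Dppa3, 0.0395 for Gch1, 0.0387 for 4930483K19Rik and 0.0345 for Mir1893. The count of called changes rested on single libraries, as given above, and the change of each gene was not examined without 1 library. Mir12188 and Mir1893 are short microRNA genes, whose FPKM in a library of longer RNA is uncertain. At D7 the call of Mir12188 was lost without NanogBiD replicate 2 (-2.04, adjusted p = 0.0627) or NanogWT replicate 1 (-2.05, adjusted p = 0.0644), and that of Mir1893 without NanogBiD replicate 2 (-0.60, adjusted p = 0.353), NanogWT replicate 1 (-1.47, adjusted p = 0.0657) or NanogWT replicate 2 (-1.45, adjusted p = 0.0631).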

How the results depend on the processing

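The D7 counts of 975 higher and 783 lower genes became 1588 higher with a pseudocount of 0.1, and 2909 higher and 1870 lower with no fold limit. Without 1 library in turn they ranged from 895 to 1125 and from 744 to 862. Scaling moved the balance of the calls: 1295 higher and 1086 lower after rescaling to TPM, and 820 and 923 after quantile normalization. The D5 count of 1091 became 1689 with a pseudocount of 0.1 and 2755 with no fold limit, and ranged from 1084 to 1090 without 1 library of D7. The change from D5 to D7 was the least stable result, with 212 genes called, 68 with a pseudocount of 0.1, 114 with the compared groups fitted alone and 56 to 302 without 1 library in turn (56 without NanogWT replicate 1, 80 without NanogBiD replicate 2). Only libraries of D7 were left out in turn. The range of the D5 count therefore does not test that count, and the change was not fitted without a D5 library. The cause of the instability of the change was not tested.

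With a replicate block the counts at D7 were 980 and 785 and that of the change 292. Across the tested genes, replicate 1 minus replicate 2 at D7 in NanogBiD correlated at 0.39 with the same difference in NanogWT. The labels do not say what a number marks, so the numbers were not taken to pair the samples. Among 120 named genes under 13 alternatives, 1501 of 1558 values kept their call and none reversed. Another 55 lost and 2 gained it, over 23 genes. Apart from the introduced factors, these genes were picked from the calls of the main fit by the size of their differences or changes. Reversals were therefore unlikely from the start, and no call could be lost with no fold limit. The counts do not describe the other called genes. Pou5f1 lost its call with no filter (adjusted p = 0.0522), after quantile normalization (adjusted p = 0.0752) and with the groups fitted alone (adjusted p = 0.179). Of the rows of the table, 179 repeat another row, and counted once they left 964 higher and 779 lower genes. With 2 libraries a group and no counts, differences of genes near 1 FPKM are the least certain.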
